A study of Mus musculus with 6 samples.

Results

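The unfolded protein response and the integrated stress response were followed in mouse liver through 36 genes, out of 18193 genes named on the array. The genes were chosen by symbol from what is known of these pathways, and every probe set that the platform annotation gives to exactly 1 of them was used, 81 of 45037 probe sets in all. For 35 genes the listed symbol was found, and Ero1lb was found under its newer symbol Ero1b. All 36 passed the level filter, as did 76 of their 81 probe sets. The groups were male C57BL/6 mice, an inbred laboratory strain, 8 weeks old at the start and then kept for 12 weeks on 1 of 2 diets, a normal one or a high-fat one in which fat gave 60% of the calories. Each diet had 6 mice, and liver RNA was pooled from 2 mice at a time, read here as 3 pools and 3 Affymetrix arrays per diet. Nothing further is given on the diets' composition or on when the livers were taken. The replicate is therefore a pool of mice on its own array (n = 3 per diet), so the spread behind each p-value is that of pools and not of single animals. Levels are RMA values on the log2 scale, and a gene was called where its adjusted p was below 0.05.

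Secreted and membrane proteins are folded in the endoplasmic reticulum (ER), and hepatocytes, which make most plasma proteins, carry a large amount of it. When unfolded protein accumulates there, the sensors IRE1 (gene Ern1), PERK (Eif2ak3) and ATF6 (Atf6) start the unfolded protein response: IRE1 splices the mRNA of Xbp1 into the form that encodes an active transcription factor, ATF6 is cut into one, and PERK phosphorylates eIF2. Phosphorylated eIF2 lowers general translation but favours that of ATF4, and because other kinases also phosphorylate eIF2, this arm is called the integrated stress response. XBP1 and ATF6 are known to drive genes for chaperones, disulfide enzymes and the degradation of misfolded proteins, and ATF4 drives Ddit3, Trib3, Chac1 and others. An array measures mRNA levels. Splicing of Xbp1, cleavage of ATF6 and phosphorylation of eIF2 were not measured here. Of the 6 arrays, normal diet 3 stood apart over all genes tested: it was the highest array in 27.0% of them and the lowest in 28.0%, where the other 5 arrays were the highest in 12.2% to 17.8% and the lowest in 12.7% to 15.3%.

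Many of these genes share a short sequence near their start. The ER stress element, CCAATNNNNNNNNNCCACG, is bound by NF-Y at its CCAAT end and by ATF6 or XBP1 at its CCACG end. It was searched on both strands in windows from 250 bases before to 50 bases after the gene start (RefSeq, GRCm38.p6). Windows on a single chromosome were left out of the search. The windows used covered 32 of the 36 genes and 27025 genes in all. The windows of 10 of the 32 genes (31.2%) held it, against 37 of 27025 genes (0.137%). Stress response genes are in part known through this element, so the share describes the list and is no test of it. The sites are shown because the 10 genes that hold them all had negative differences under the high-fat diet, as given further on. Each is written in the direction of the element, with the element in capitals and 10 bases on either side:
Hspa5 (chr2:34772015-34772053, + strand): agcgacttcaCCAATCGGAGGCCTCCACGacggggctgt
Hsp90b1 (chr10:86705628-86705666, - strand): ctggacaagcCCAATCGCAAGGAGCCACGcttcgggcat
Hsp90b1 (chr10:86705523-86705561, + strand): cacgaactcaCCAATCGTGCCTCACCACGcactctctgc
Dnajc3 (chr14:118937817-118937855, + strand): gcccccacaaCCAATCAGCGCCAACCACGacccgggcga
Creld2 (chr15:88819510-88819548, - strand): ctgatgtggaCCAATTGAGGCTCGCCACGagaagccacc
Calr (chr8:84847065-84847103, + strand): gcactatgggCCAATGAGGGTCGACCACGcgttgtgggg
Canx (chr11:50325790-50325828, - strand): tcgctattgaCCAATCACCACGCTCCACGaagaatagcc
Pdia6 (chr12:17266481-17266519, + strand): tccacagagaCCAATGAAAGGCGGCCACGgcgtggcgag
Ero1b (chr13:12565672-12565710, - strand): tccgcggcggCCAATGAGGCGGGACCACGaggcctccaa
Syvn1 (chr19:6046522-6046560, + strand): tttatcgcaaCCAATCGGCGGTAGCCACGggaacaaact
Derl3 (chr10:75893232-75893270, - strand): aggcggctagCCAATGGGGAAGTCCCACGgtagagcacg

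The CCACG end alone, which the full element contains, lay in 25 of the 32 windows (78.1%) and in 35.5% of all genes' windows. The UPR element TGACGTGG was found in 0 of the 32 windows and in 0.714% of all genes' windows, which says only that these letters are not in these stretches. A core of the C/EBP-ATF response element, TGATGNAA, through which ATF4 acts, was found in 4 of the 32 windows (12.5%) against 4.51% of all genes' windows. These 4 sites, with the core in capitals, belong to genes that ATF4 is known to drive and stand for the integrated stress response:
Trib3 (chr2:152344029-152344056, + strand): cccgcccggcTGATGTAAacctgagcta
Atf3 (chr1:191183426-191183453, + strand): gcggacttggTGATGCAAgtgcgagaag
Chac1 (chr2:119351039-119351066, - strand): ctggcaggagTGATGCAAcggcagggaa
Herpud1 (chr8:94386307-94386334, - strand): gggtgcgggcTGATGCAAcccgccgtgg

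Xbp1 and the chaperones Hsp90b1 and Dnajc3 fell in livers of mice on the high-fat diet, and Trib3, an output of the integrated stress response, rose. Xbp1 stood 2.79-fold lower (log2 difference, high-fat minus normal diet, -1.48 ± 0.13 SE, n = 3 arrays per diet, limma adjusted p = 0.00314). Hsp90b1 was 1.67-fold lower (-0.74 ± 0.17, adjusted p = 0.0433) and Dnajc3 1.54-fold lower (-0.62 ± 0.13, adjusted p = 0.0342), while Trib3 was 1.61-fold higher (0.68 ± 0.12, adjusted p = 0.0210). The other 32 genes did not pass an adjusted p of 0.05. Of the 36 genes 8.33% were thus called lower and 2.78% higher, against 1.73% and 5.87% of all 14071 genes tested (7.60% in either direction). The median of the 36 differences was -0.36, against 0.00 over all genes tested, and 25 were negative (69.4% against 49.5%).

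Calls among the 36 genes depended on scaling and on single arrays. The 3 lower and 1 higher genes became 5 and 1 after quantile normalization, 5 and 2 after cyclic loess and 2 and 2 after median centring. Over all genes, quantile normalization gave 597 higher and 299 lower genes (66.6% higher), where the values as deposited gave 826 and 244 (77.2%). Leaving out normal diet 2, or any of the high-fat arrays, left Xbp1 as the 1 gene called lower, and leaving out normal diet 1 left Xbp1 and Dnajc3. Without normal diet 3 Xbp1, Hsp90b1, Dnajc3 and Trib3 kept their calls and Chac1 joined the lower genes. In 12 genes all high-fat arrays lay below all normal diet arrays (33.3% against 14.7% of all genes), and in 4 genes all lay above (11.1% against 21.1%).

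**Figure D1:**
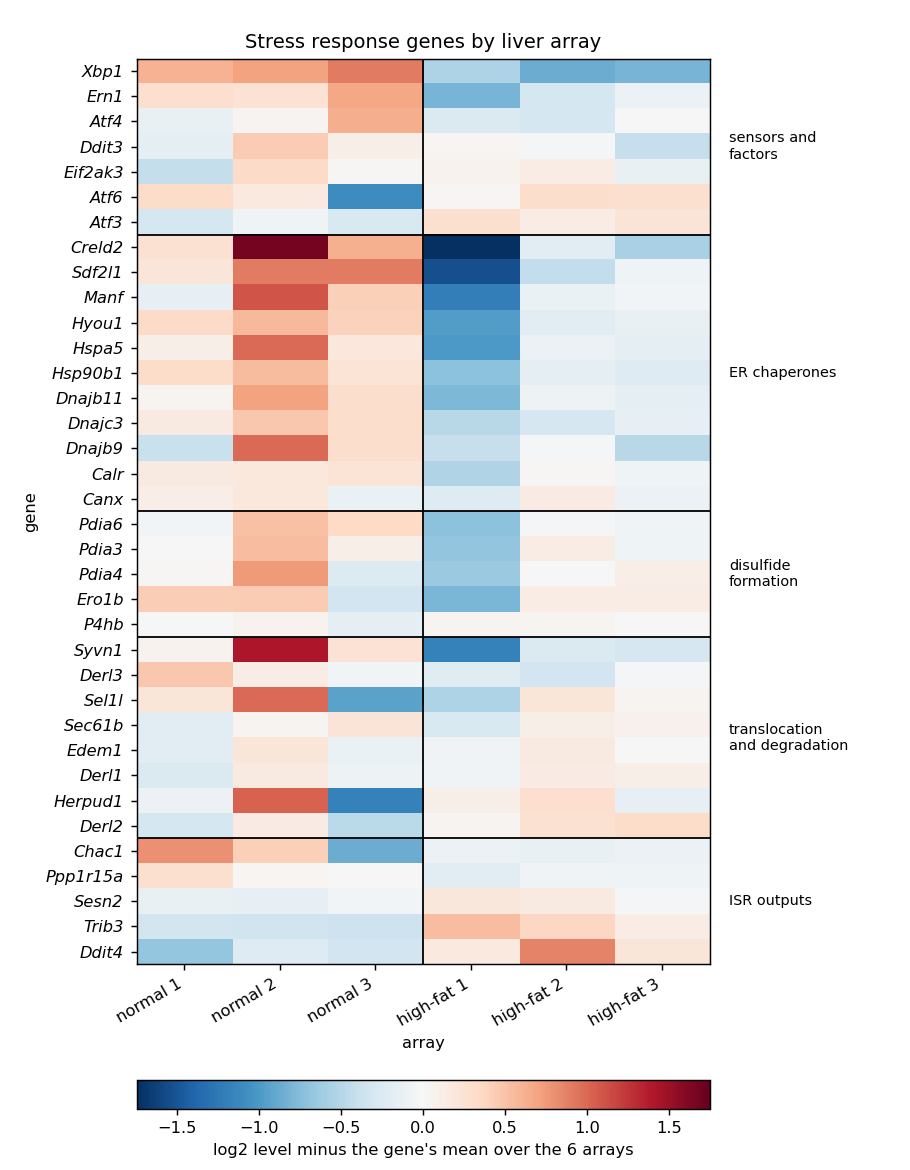
Colour gives each gene's log2 level in an array minus its mean over the 6 arrays (red above, blue below), with genes in rows by role and arrays in columns. Most chaperone rows are red in normal diet 2 and blue in high-fat 1, and Xbp1 is red in all normal diet arrays and blue in all high-fat arrays.

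Among the 7 sensors and transcription factors 1 fell (14.3%, against 1.73% of all genes tested), 0 rose and 6 were not called. Xbp1 had log2 levels of 11.32, 11.41 and 11.62 in normal diet 1, 2 and 3 and of 10.17, 9.84 and 9.90 in high-fat 1, 2 and 3. The lowest normal diet array was thus above the highest high-fat array by far more than the SD within a diet (0.16 and 0.18). All 4 of its probe sets were lower, by -1.48, -1.47, -1.47 and -1.22, and each passed when probe sets were tested one by one (limma adjusted p from 0.00336 to 0.0128). The probe sets were not assigned to the spliced or the unspliced form. Xbp1 ranked 27 among the 14071 genes by p-value and was called in all 6 fits that left out an array (-1.58 to -1.39).

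Ern1, which encodes the enzyme that splices Xbp1 mRNA, had levels of 8.33, 8.28 and 8.70 under the normal diet and 7.22, 7.72 and 7.92 under the high-fat diet. The diets did not overlap, but the difference of -0.81 ± 0.20 did not pass (limma adjusted p = 0.0538), and it passed after quantile normalization (-0.95, adjusted p = 0.0434) and cyclic loess (-0.94, adjusted p = 0.0400). Its other 2 probe sets above the level filter were far dimmer and differed by -0.29 and -0.08. Eif2ak3 differed by 0.04 ± 0.19 and Atf6 by 0.41 ± 0.35, with 95% intervals of -0.41 to 0.49 and -0.40 to 1.22. The sensor genes of the other arms thus had intervals that include 0, and the Atf6 interval also includes a doubling. Atf6 was at 8.07 and 7.92 in normal diet 1 and 2, at 6.66 in normal diet 3 and under the high-fat diet between 7.77 and 8.06. Leaving normal diet 3 out, it differed by -0.04. Dimmer probe sets of Atf6 differed by 0.03 and -0.13, and a dimmer one of Eif2ak3 above the level filter by -0.19.

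Atf4, the transcription factor gene of the integrated stress response, was at 9.32, 9.49 and 10.09 under the normal diet and at 9.20, 9.15 and 9.44 under the high-fat diet. Its difference of -0.37 ± 0.20 did not pass (adjusted p = 0.273), and a dimmer probe set differed by -0.66 (adjusted p = 0.0555 among probe sets). Ddit3, which encodes the pro-apoptotic factor CHOP, overlapped between the diets, at 6.15 to 6.76 and 5.91 to 6.34 (-0.26 ± 0.19). Atf3, a stress-induced factor gene, showed the opposite order. Its levels were 4.59, 4.83 and 4.64 under the normal diet and 5.17, 5.03 and 5.13 under the high-fat diet, a difference of 0.42 ± 0.11 that missed the threshold (adjusted p = 0.0559). All high-fat arrays lay above all normal diet arrays, and Atf3 passed with trend and robust variance (0.42, adjusted p = 0.0485), after cyclic loess (0.47, adjusted p = 0.0453), after median centring (0.47, adjusted p = 0.0407) and where probe sets were averaged (0.42, adjusted p = 0.0425).

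**Figure D2:**
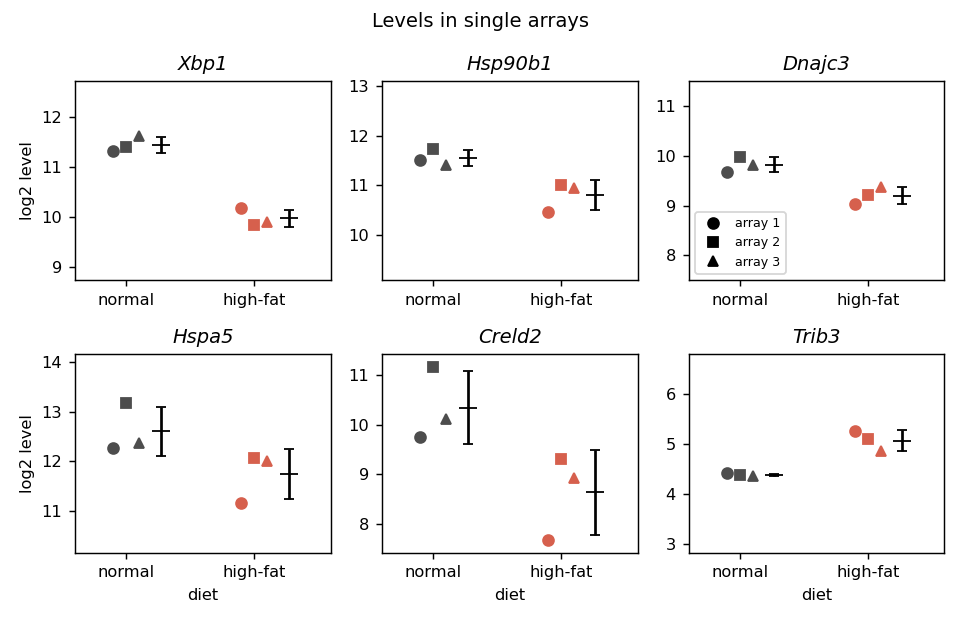
Log2 levels of 6 genes in single arrays (circle, square and triangle for arrays 1, 2 and 3), with the mean ± SD of each diet (n = 3) beside them and an axis of the same length in every panel. Xbp1 separates the diets by several SDs, whereas Hspa5 and Creld2 spread widely, with normal diet 2 at the top and high-fat 1 at the bottom.

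Of the 11 chaperone genes of the ER 2 fell (18.2%, against 1.73% of all genes tested), 0 rose and 9 were not called. All 11 differences were negative (median -0.74). At an unadjusted p below 0.05 there were 9 lower genes (81.8%, against 9.46% of all genes). In 8 of the 11 every high-fat array lay below every normal diet array (72.7%, against 14.7% of all genes). All 11 stayed negative after quantile normalization, cyclic loess and median centring, while Canx turned to 0.11 when its probe sets were averaged.

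Hspa5 encodes BiP, the main chaperone of the ER and the protein that holds the sensors inactive. It was among the brightest of the 36 genes, at 12.27, 13.16 and 12.37 under the normal diet and 11.16, 12.07 and 12.00 under the high-fat diet. All high-fat arrays were lower, but the arrays of each diet were 0.49 and 0.51 apart (SD). The 1.81-fold difference (-0.85 ± 0.31) therefore did not pass (adjusted p = 0.131). A dimmer probe set of Hspa5 with less spread, at 8.47, 8.46 and 8.50 against 8.11, 8.07 and 8.00, differed by -0.42. It passed among probe sets (limma adjusted p = 0.0455), but its x suffix marks a probe set that can match several transcripts. The remaining probe set, with an s suffix, differed by -0.94 and did not pass (limma adjusted p = 0.178 among probe sets).

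Hsp90b1, which encodes GRP94, the HSP90 of the ER, was at 11.50, 11.74 and 11.41 under the normal diet and 10.46, 11.02 and 10.96 under the high-fat diet. Its call was lost after median centring (-0.70, adjusted p = 0.0572), with averaged probe sets (-0.68, adjusted p = 0.0869), among probe sets tested one by one (-0.74, adjusted p = 0.0519) and in 5 of the 6 fits that left out an array (-0.84 to -0.56). Dnajc3, which encodes p58IPK, a BiP co-chaperone and inhibitor of PERK, was at 9.67, 9.98 and 9.82 against 9.02, 9.21 and 9.37. It has 5 probe sets, all lower (-0.68 to -0.29), of which 1 passed among probe sets. The call was lost with their mean (-0.48, adjusted p = 0.109), without normal diet 2 (-0.54) and without high-fat 1, 2 or 3 (-0.53, -0.63 and -0.71).

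Creld2, known as an ER stress-inducible gene, had the largest difference of the 36 genes, 3.26-fold lower (-1.71 ± 0.48), without passing (adjusted p = 0.0755). Its levels were 9.75, 11.16 and 10.11 under the normal diet and 7.68, 9.30 and 8.92 under the high-fat diet. Sdf2l1, which encodes a component of ER chaperone complexes with BiP, was at 8.18, 8.88 and 8.88 against 6.43, 7.54 and 7.90, 2.56-fold lower (-1.35 ± 0.38, adjusted p = 0.0722). In both genes the diets did not overlap, high-fat 1 was more than 1 log2 unit below the other high-fat arrays, and the differences without it were -1.23 and -0.93. Hyou1, the gene of a large HSP70-like chaperone, was at 9.47, 9.70 and 9.55 against 8.16, 8.95 and 9.004 (-0.87 ± 0.22, adjusted p = 0.0600), and passed after quantile normalization (-0.99, adjusted p = 0.0379) and cyclic loess (-0.999, adjusted p = 0.0386). Its 3 probe sets were lower by -0.87, -0.79 and -0.51.

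Manf, which encodes a secreted ER stress protein, differed by -0.91 ± 0.39 and was at 10.52, 11.75 and 11.06 against 9.45, 10.54 and 10.60. Its diets overlapped slightly, since normal diet 1 lay below high-fat 2 and 3. Dnajb11 and Dnajb9, both co-chaperones of BiP, differed by -0.70 ± 0.23 and -0.60 ± 0.32. Dnajb9, known as a target of XBP1, was at 8.89, 10.27 and 9.59 against 8.88, 9.26 and 8.80, so normal diet 1 was level with the high-fat arrays. The lectin chaperone genes Calr and Canx, whose products hold newly made glycoproteins, differed by -0.39 ± 0.15 and -0.12 ± 0.14. A dimmer probe set of Canx went the other way (0.49, limma adjusted p = 0.119 among probe sets), with all high-fat arrays above all normal diet arrays. Another Canx probe set differed by -0.04. Calr was tight under the normal diet (11.51, 11.52 and 11.58) and lower in each high-fat array (10.82, 11.36 and 11.27). None of these 5 genes passed (adjusted p from 0.107 to 0.586). Without high-fat 1 Manf differed by -0.54 and Calr by -0.22. Without normal diet 2 Manf differed by -0.59 and Dnajb9 by -0.26, and without normal diet 1 Dnajb9 differed by -0.95.

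The 5 genes of disulfide formation were all uncalled. P4hb, the gene of protein disulfide isomerase itself, was nearly level, at 11.87 to 12.10 under the normal diet and 12.04 to 12.08 under the high-fat diet. Its difference of 0.06 ± 0.10 had a 95% interval of -0.17 to 0.30, and it turned to -0.06 after cyclic loess. Its relatives Pdia6, Pdia3 and Pdia4 differed by -0.54 ± 0.22, -0.42 ± 0.24 and -0.36 ± 0.29, and Ero1b, an oxidase that recharges these enzymes, by -0.36 ± 0.31. High-fat 1 was the lowest array in all 4 of these genes and normal diet 2 the highest. Without high-fat 1 Pdia6, Pdia3, Pdia4 and Ero1b differed by -0.32, -0.18, -0.12 and -0.05, and without normal diet 2 by -0.42, -0.26, -0.07 and -0.23. Without normal diet 3 Pdia4 differed by -0.57 and Ero1b by -0.62. Pdia3 shows the pattern, at 10.97, 11.52 and 11.08 against 10.28, 11.12 and 10.91. A dimmer probe set of Ero1b differed by 0.23, in the other direction.

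**Figure D3:**
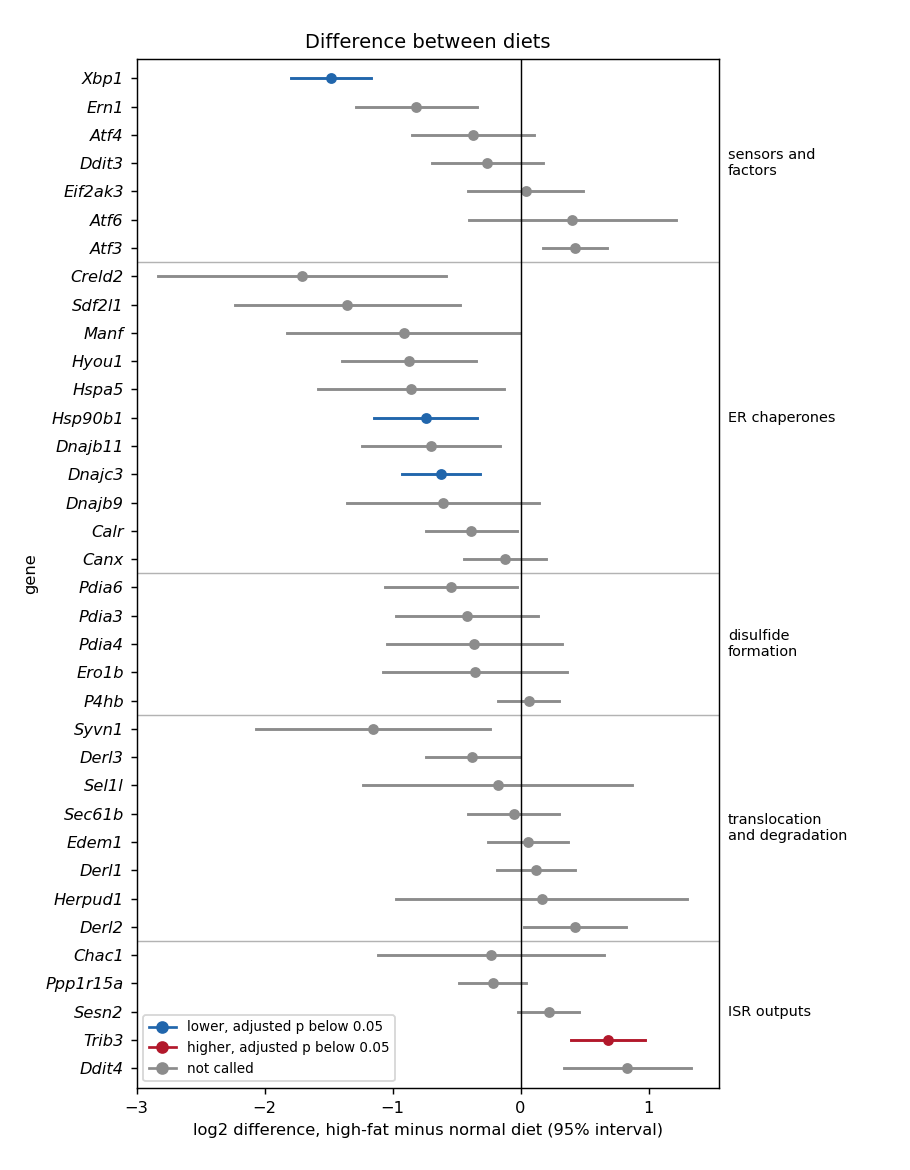
Points are log2 differences (high-fat minus normal diet) of the 36 genes by role and bars their 95% intervals from limma (n = 3 arrays per diet), coloured where the adjusted p was below 0.05. All 11 chaperone points lie left of 0, while the degradation genes and the outputs of the integrated stress response lie on both sides.

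Translocation and degradation genes were also all uncalled, and 4 of the 8 were negative (median 0.00). The gene that differed most was Syvn1, which encodes HRD1, the ubiquitin ligase of ER-associated degradation. It was at 8.57, 9.92 and 8.76 under the normal diet and 7.33, 8.26 and 8.22 under the high-fat diet. Both its probe sets were lower, by -1.15 and -1.08, and the diets did not overlap, but the 2.22-fold difference did not pass (-1.15 ± 0.39, adjusted p = 0.113). Normal diet 2 lay far above the other arrays, and without it Syvn1 differed by -0.73 and was not called either. Sel1l, the partner of HRD1, differed by -0.18 ± 0.45 and spread from 8.25 to 10.17 within the normal diet, with -0.69 in the fit without normal diet 3. Its dimmer probe sets differed by 0.23, -0.17, 0.25 and -0.11.

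Herpud1, which encodes a membrane component of the HRD1 complex, spread even more widely, at 11.31, 12.44 and 10.22 under the normal diet against 11.51, 11.70 and 11.26 (0.17 ± 0.49). It turned to -0.39 without normal diet 3 and to -0.25 with array weights. Derl1, Derl2 and Derl3 encode derlins, membrane proteins of the exit channel. Derl2 was at 10.06, 10.50 and 9.88 against 10.40, 10.63 and 10.68 (0.42 ± 0.17, adjusted p = 0.163), Derl3 at 7.34, 6.99 and 6.82 against 6.66, 6.53 and 6.83 (-0.38 ± 0.16, adjusted p = 0.172), and Derl1 differed by 0.12 ± 0.13. The derlin genes thus had differences of either sign, and none passed. Within Derl1 the probe sets disagreed in sign too, since its dimmer ones differed by 0.24, -0.25 and -0.04. Edem1, a mannosidase-like gene that marks glycoproteins for degradation, differed by 0.06 ± 0.13, and its other probe set by -0.43. Sec61b, a subunit of the translocation channel, differed by -0.05 ± 0.15 with a 95% interval of -0.41 to 0.30.

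In the integrated stress response 1 of 5 output genes rose (20%, against 5.87% of all genes tested), 0 fell and 4 were not called. Trib3 encodes a pseudokinase induced by ATF4 and CHOP that binds AKT. Its levels were 4.41, 4.39 and 4.37 under the normal diet and 5.27, 5.10 and 4.86 under the high-fat diet. These are low levels, about 1 log2 unit above the level filter of 3.48 to 3.59. All high-fat arrays lay above all normal diet arrays, which differed by 0.02 (SD). Its other probe set, at 4.10, 3.98 and 4.40 against 4.43, 4.10 and 4.45, differed by 0.16 and did not pass. The call was lost without high-fat 1 (0.59, adjusted p = 0.0740) and without high-fat 2 (0.67, adjusted p = 0.0900).

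Ddit4, which encodes REDD1, an inhibitor of mTORC1, was at 7.10, 7.56 and 7.44 against 7.95, 8.65 and 8.00, 1.78-fold higher (0.83 ± 0.21) without passing (adjusted p = 0.0584). Sesn2, a further stress-induced inhibitor of mTORC1, was at 6.44, 6.44 and 6.52 against 6.78, 6.73 and 6.55 (0.22 ± 0.10, adjusted p = 0.212). In Trib3, Ddit4, Sesn2 and Atf3 all high-fat arrays lay above all normal diet arrays. These were the 4 genes of the 36 for which this held (11.1%, against 21.1% of all genes tested). Ppp1r15a, which encodes GADD34, the phosphatase subunit that ends the response, lay the other way, at 6.85, 6.60 and 6.58 against 6.38, 6.51 and 6.49 (-0.22 ± 0.11, adjusted p = 0.249). Chac1, a glutathione-degrading enzyme gene driven by ATF4, was at 6.89, 6.51 and 5.23 against 5.98, 5.97 and 5.99 (-0.23 ± 0.38). The high-fat arrays were nearly identical in Chac1 (SD 0.010), and normal diet 3 lay below them. Without normal diet 3 Chac1 was called lower (-0.72, adjusted p = 0.0172), and without normal diet 1 it differed by 0.11.

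Single arrays stood out within the diets, mainly in the chaperone and disulfide genes. Normal diet 2 was the highest of the 6 arrays in 21 of the 36 genes (58.3%, against 12.2% of all genes tested), and high-fat 1 the lowest in 18 (50% against 14.6%). Among the 11 chaperone genes normal diet 2 was the highest in 9 and high-fat 1 the lowest in 10, and among the 5 disulfide genes in 5 and 4. Among the 7 sensors and transcription factors they were so in 2 and 1. The mean deviation of the chaperone genes from the 6-array mean was 0.11, 0.76 and 0.35 in normal diet 1, 2 and 3. In high-fat 1, 2 and 3 it was -0.88, -0.13 and -0.20. Without high-fat 1 the median chaperone difference was -0.55, and without normal diet 2 it was -0.57, in place of -0.74, with 5 genes at an unadjusted p below 0.05 in either case. The outputs of the integrated stress response did not follow this order, with 0.12 in high-fat 1 and -0.05 in normal diet 2. Xbp1 did not follow it either, since high-fat 1 was its highest high-fat array. Over all genes tested the mean deviations lay between -0.06 and 0.04. The median SD of the 36 genes was 0.29 under the normal diet and 0.23 under the high-fat diet, against 0.17 and 0.12 over all genes tested.

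**Figure D4:**
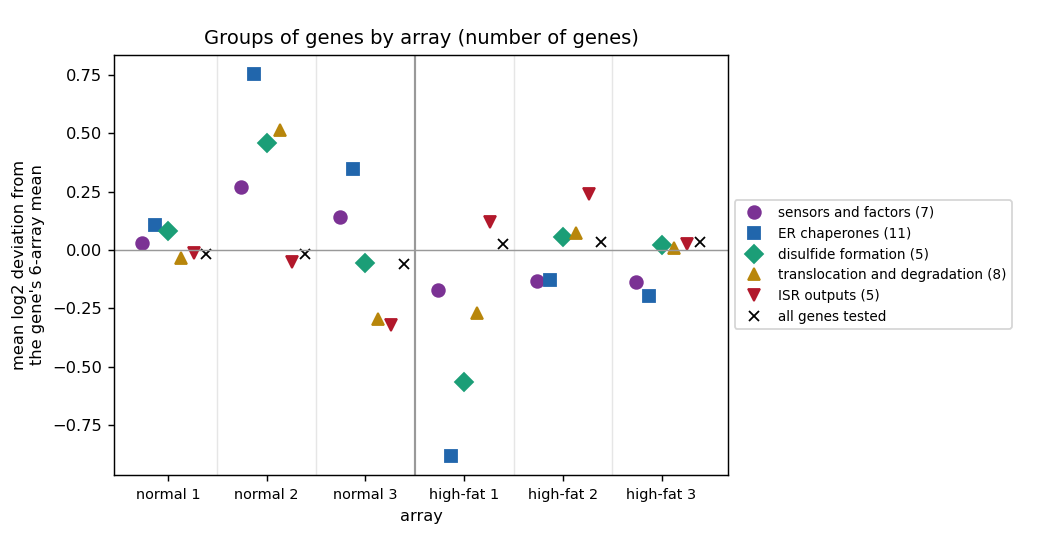
Each symbol is the mean, over the genes of 1 role, of the log2 deviation from the gene's mean over the 6 arrays. The chaperone genes run from 0.76 in normal diet 2 to -0.88 in high-fat 1, while all genes tested (crosses) stay near 0.

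Hepatocyte markers were bright in every array, with Alb, the albumin gene, between 14.37 and 14.49 and all 5 markers above the filter. RNA integrity was read from control probe sets at both ends of 2 transcripts. For Gapdh the 3' end exceeded the 5' end by 0.36 (log2) in normal diet 1, by -0.19 in high-fat 1 and by -0.04 to 0.01 elsewhere, and for actin by 1.59, by 1.02 and by 1.12 to 1.23. High-fat 1 thus had the lowest value both in these controls and in the chaperone genes, whereas normal diet 2, the highest in the chaperone genes, was at -0.03 for Gapdh. The part of RNA integrity in the result was not tested.

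Liver is a mixture of cells, and in bulk RNA fewer cells of a type and less RNA per cell cannot be told apart. Of the 6 macrophage and Kupffer cell markers 4 were called higher, and their summed level was 10.30 to 10.56 under the normal diet and 10.92 to 11.08 under the high-fat diet (log2). Of the stellate cell markers 2 of 5 were called higher (10.39 to 10.45 against 10.94 to 11.14), and 1 of 5 endothelial markers (9.74 to 9.97 against 9.93 to 10.10). Plasma cells and pancreatic acinar cells are rich in ER and express many of the 36 genes. Plasma and B cell markers had 0 of 6 called (7.96 to 8.39 against 7.89 to 8.19), with Prdm1 below the level filter. Among 5 acinar markers on the array 1, Cela1, was called lower (summed level 8.99 to 9.45 against 8.53 to 8.67), and Cela2a was below the filter. Hepatocyte markers had a summed level of 16.03 to 16.09 under both diets, with none called. In Cps1 and Tat all high-fat arrays lay below all normal diet arrays (-0.28 and -0.26). In Alb and Ttr all lay above (0.07 and 0.13). T cell and cholangiocyte markers had none called either (7.13 to 7.17 against 7.03 to 7.19, and 6.65 to 6.86 against 6.50 to 6.65). Adipocyte markers Adipoq and Lep were below the filter, and Retn, the 1 marker above it, was not called (summed level 5.25 to 5.59 against 5.09 to 5.16). The part of these cells in the results was not tested.

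The 10 genes with the full ER stress element shown above were all lower, from -1.71 (Creld2) to -0.12 (Canx), with a median of -0.58. Of them 2 were called lower, Hsp90b1 and Dnajc3, and in 6 all high-fat arrays lay below all normal diet arrays. Over all 11252 tested genes with a window 192 were called lower and 1648 had all high-fat arrays below. In the 22 genes that had a window without the element, 13 were negative and the median was -0.20. Xbp1 is one of these, so the gene with the smallest p-value of the 36 has no full element in its window. The chaperone genes Sdf2l1, Dnajb11 and Dnajb9 are also among the 22, and differed by -1.35, -0.70 and -0.60. Of the genes with the element, Hspa5, Hsp90b1, Dnajc3, Creld2, Calr and Canx are chaperone genes, a role in which all 11 differences were negative. Element and role were therefore not separated, and the part of the element was not tested. Outside the 36 genes 8 tested genes held the element. Of these 6 were negative (median -0.12) and none was called. They ranged from -0.22 in Adcy3, an adenylyl cyclase gene, to 0.74 in Acacb, the acetyl-CoA carboxylase gene of mitochondria, both named after their values were seen. Acacb passed without normal diet 2 (1.02, adjusted p = 0.0138). Among all tested genes with a window 48.9% were negative and the median was 0.01. The 4 genes with the C/EBP-ATF core had differences of 0.68 (Trib3), 0.42 (Atf3), 0.17 (Herpud1) and -0.23 (Chac1). The 322 other tested genes with this core had a median of -0.03.

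**Figure D5:**
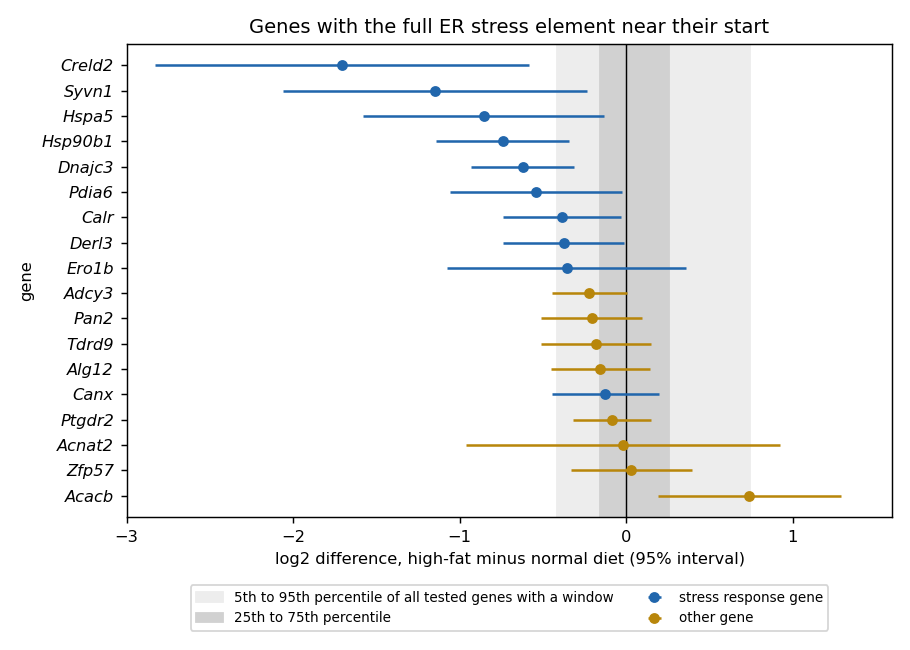
Log2 differences (high-fat minus normal diet) with 95% intervals of the 18 tested genes that hold the full ER stress element, 10 of them stress response genes (blue), over the range from the 5th to the 95th percentile (light grey) and from the 25th to the 75th (dark grey) of all tested genes with a window. Every blue point lies left of 0.

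Further genes of these pathways were taken from 6 lists. Of their 162 entries 155 were found on the array and 152 were tested. Of these, 5 rose, 3 fell and 144 were not called, with a median difference of -0.06. Over all genes tested 5.87% were called higher and 1.73% lower. At an unadjusted limma p below 0.05, 8 of the 152 were higher and 19 lower, against 18.1% and 9.46% of all genes tested. Among 29 other chaperones and disulfide enzymes 2 fell and 1 rose. At the unadjusted threshold 8 of these 29 were lower and 1 was higher. In 8 of the 29 all high-fat arrays lay below all normal diet arrays, against 14.7% of all genes tested, and in 4 all lay above, against 21.1%. Pdia5, a further disulfide isomerase gene, was at 9.28, 8.99 and 9.31 against 8.16, 8.57 and 8.41 (1.76-fold lower, -0.81 ± 0.14, adjusted p = 0.0201). Qsox1, a disulfide-forming oxidase gene, was at 9.73, 9.72 and 9.87 against 9.08, 9.21 and 9.31 (-0.57 ± 0.11, adjusted p = 0.0229), and Fkbp14, an ER proline isomerase gene, rose from a low level (0.60 ± 0.12, adjusted p = 0.0320).

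Of 22 other sensors, proteases and regulators 2 rose and 1 fell. Nfe2l2, the gene of the antioxidant factor NRF2 and a substrate of PERK, was 1.71-fold higher (0.78 ± 0.15, adjusted p = 0.0288), Bcl2l11, the gene of the pro-apoptotic protein BIM, 1.76-fold higher (0.82 ± 0.12, adjusted p = 0.0119) and Map3k5, the gene of the kinase ASK1, 1.51-fold lower (-0.59 ± 0.11, adjusted p = 0.0242). Among 26 ATF4 targets of amino acid supply and hormones 1 rose, Fgf21, which encodes a hormone of the liver (2.70-fold, 1.43 ± 0.18, adjusted p = 0.00731). As a list these 26 did not rise, since 15 were negative and the median was -0.08. At an unadjusted limma p below 0.05, 1 of them was higher and 2 were lower. Of 41 genes of translocation, glycosylation and export 1 rose, Tusc3, an oligosaccharyltransferase subunit gene (2.39-fold, 1.26 ± 0.19, adjusted p = 0.0122). None of 23 other degradation genes and of 11 genes of eIF2, its kinases and eIF2B was called by limma, and at an unadjusted p below 0.05 there were 2 higher and 2 lower degradation genes and 1 lower gene of eIF2. Over all genes tested 18.1% were higher and 9.46% lower at that threshold.

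Among these 8 genes, Bcl2l11, Qsox1 and Fkbp14 differed by 0.12, -0.22 and 0.27 when their probe sets were averaged and were not called there. Fgf21 was called in all 6 fits that left out an array. Pdia5, Qsox1, Fkbp14, Nfe2l2, Map3k5 and Tusc3 lost their calls on removal of any 1 of the high-fat arrays (adjusted p between 0.0518 and 0.118), as did Bcl2l11 on removal of high-fat 2 or 3 (adjusted p = 0.0523 and 0.0619). Fkbp14 and Nfe2l2 also lost their calls without normal diet 1 (0.55 and 0.72, adjusted p = 0.0624 and 0.0589).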

How the data were processed

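The authors' deposited table holds log2 values for each probe set, summarised by RMA; Affymetrix Expression Console 1.0 is the tool named in the submitters' processing notes. Per the labels' protocols, RNA was extracted with TRIzol and 10 µg went into one-cycle biotin labelling. Scanner files were not used here. RMA understates folds near background, and precision is limited by how few arrays there are.

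Without 64 controls the table has 45037 probe sets: 34945 with 1 gene symbol, 932 with several and 9160 unnamed here. A RefSeq gene table (GRCm38.p6) held the gene IDs of 34741, and 0 symbols changed. The brightest probe set on average stood for a gene, provided that at least 3 of 6 arrays had it over their 40th percentile. Probe sets with an x or s suffix can match several transcripts.

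All 14071 genes entered 1 limma fit (version 3.58.1, R 4.3.3; lmFit, eBayes, two-sided) of high-fat minus normal diet, with Benjamini-Hochberg adjustment and calls below 0.05, a procedure checked on simulated data. Python 3.11.15, pandas 2.3.3 and matplotlib 3.10.9 summarised the tables. All 36 genes are named, and of the other lists up to 5 called genes per list and direction. Members and lists were chosen with earlier results of these data known. Alternatives were other level filters, variance models, array weights, scalings, choices of probe set, a fit with the replicate number as a block, and fits without each array.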

Additional observations from a re-analysis of the deposited data

How the results depend on the processing

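Of 606 values of the 36 genes under the alternatives, 552 kept their direction and their side of the threshold. The 3 lower and 1 higher genes became 5 lower after quantile normalization and after cyclic loess, 1 lower with averaged probe sets, 2 higher with trend and robust variance, after cyclic loess, after median centring and with averaged probe sets, and 0 higher with probe sets without a suffix, where Trib3 was not tested. Fits without 1 array gave 0 to 1 higher and 1 to 4 lower of the 36 genes, 1 to 5 higher and 0 to 7 lower of the other pathway genes, and 123 to 933 higher and 46 to 312 lower of all genes. The lowest counts of all genes came without a high-fat array: 213 and 59 without high-fat 1, 162 and 55 without high-fat 2, and 123 and 46 without high-fat 3. Array weights gave 373 lower genes over all genes, and the 3 lower other pathway genes became 7 with array weights and 6 after quantile normalization and after cyclic loess.

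Over all genes tested, deviations from the diet means correlated at only -0.012, 0.036 and 0.0999 between arrays of the same replicate number. Not every array correlated best with its own number. In the chaperone genes, however, array 1 had the lowest and array 2 the highest mean deviation in both diets. These were 0.11, 0.76 and 0.35 in normal diet 1, 2 and 3, and -0.88, -0.13 and -0.20 in high-fat 1, 2 and 3. Whether arrays of the same number share a batch was not tested. With a replicate block 2 of the 36 genes were higher and 9 lower, against 1 and 3, and 581 and 187 of all genes, against 826 and 244. Creld2, Dnajb11, Ern1, Manf, Sdf2l1 and Syvn1 joined the lower genes and Ddit4 the higher ones. Of the other pathway genes called without the block, Fkbp14 (0.60, adjusted p = 0.0638) and Map3k5 (-0.59, adjusted p = 0.0519) were not called with it.

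Directions turned mostly in genes near 0, and also in Atf6 (0.41) and Chac1 (-0.23). Eif2ak3 differed by -0.016 with array weights, -0.052 after quantile normalization, -0.079 with averaged probe sets and -0.16 to 0.22 with 1 array left out. Edem1 differed by -0.080 after quantile normalization, -0.068 after cyclic loess, -0.18 with averaged probe sets and -0.019 to 0.18 with 1 array left out. Derl1 differed by -0.019 after quantile normalization and -0.0095 after cyclic loess, P4hb by -0.065 after cyclic loess, Herpud1 by -0.25 with array weights, and Sel1l by 0.0036 and Canx by 0.11 with averaged probe sets. With 1 array left out, P4hb ranged from -0.0030 to 0.11, Herpud1 from -0.39 to 0.72, Sel1l from -0.69 to 0.27, Sec61b from -0.16 to 0.066, Chac1 from -0.72 to 0.11 and Atf6 from -0.040 to 0.67. Among these values 1 was called, Chac1 without normal diet 3. The cause was not tested.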
